A study of Homo sapiens with 12 samples.

Results

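The comparison described here is the level of each mRNA in ALKBH5-knockdown cells against control cells after 8 h of actinomycin D. It was chosen by the columns of the deposited expression table that carry the 8 h time, which are 4 of the 12 libraries of the study, and it covers all 9529 gene rows without the spike-in rows. The cells were NOMO-1, a human line that comes from an acute myeloid leukaemia and has features of monocytes. They were transduced with lentivirus carrying either shNS, a hairpin without a target, or 1 of 2 hairpins against ALKBH5, selected with puromycin and then kept in actinomycin D, and poly(A) RNA was sequenced at 0, 8 and 12 h. The control group at 8 h held shNS replicates 1 and 2. The knockdown group at 8 h held 1 library of each hairpin, called lines D and E here by their letters in the table, and which letter stands for which hairpin was not given in the sources used here. All 4 libraries therefore shared transduction, selection and 8 h in the drug, whose dose was not given in the sources used here. A treatment protocol in the labels speaks of virus against FTO and of other drugs, whereas the sample titles name ALKBH5 hairpins, and the titles were followed. The cells were transduced in bulk, so each library averages over cells, and fewer cells of a kind cannot be told apart from less of an mRNA per cell.

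N6-methyladenosine (m6A) is the most common internal modification of mRNA. A writer complex built on METTL3 and METTL14 places it, ALKBH5 and FTO remove it, and reader proteins such as those of the YTHDF and IGF2BP families bind it and change how long an mRNA lives or how well it is translated. ALKBH5 is known as a gene that myeloid leukaemia cells depend on. Actinomycin D stops RNA polymerases, so a level after 8 h reflects both how much mRNA was there at the start and how much of it has decayed since, and short-lived mRNAs are the most depleted by then.

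The level of an mRNA at 8 h was read on a pair of scales. The first was the deposited signal, which apparently is set per unit of ERCC spike-in RNA, since the median of the 46 spike-ins lay between 29.9 and 32.6 in the libraries at 8 h. The sum of the spike-ins was less even, at 30030 and 29060 in shNS against 26870 and 26263 in lines D and E. The second scale subtracted from each library the log2 level of its median gene, which removes a shift common to all genes. On the first scale the sum of the signal over genes was 580217 and 477840 in the controls against 390103 and 436116. Line D thus held 73.7% and line E 82.4% of the shNS mean. The median gene stood at a signal of 9.88 and 8.43 in shNS, while lines D and E had 6.47 and 8.44, so line D lay under both controls while line E lay between them. Over all genes the median log2 difference of knockdown minus shNS was -0.23 as deposited, with -0.36 for line D and -0.11 for line E. It was 0.04 after centring. Below, a gene is called higher or lower only where it passed the test on the scale named, and genes that passed on both scales lead the account. Values given without a scale are as deposited. Where signals are given in pairs, the first pair is shNS replicates 1 and 2 and the second pair lines D and E.

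**Figure D1:**
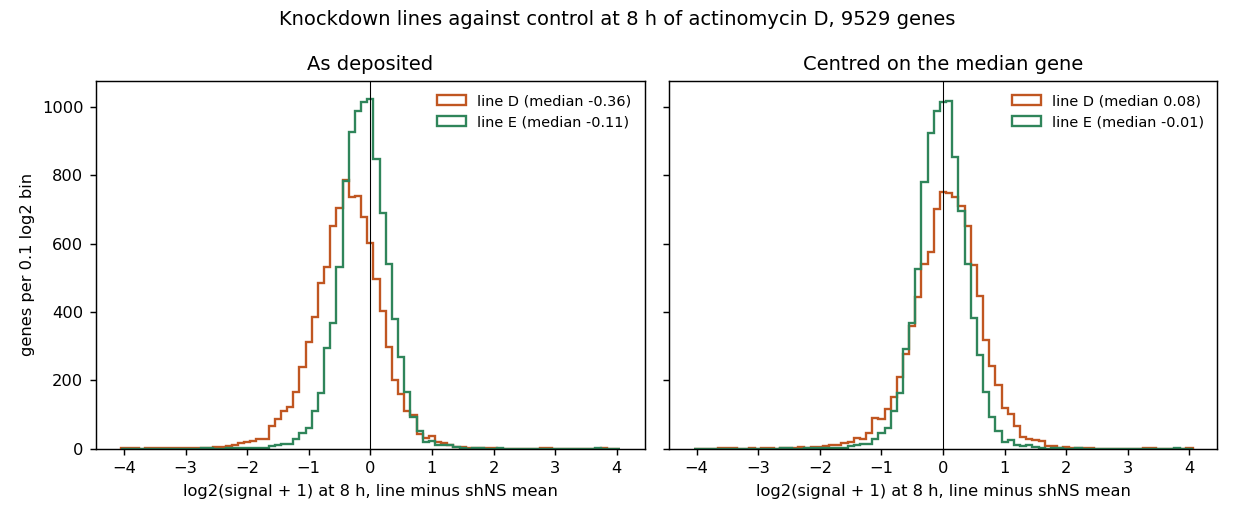
Histograms of the log2 difference of each gene at 8 h from the mean of the 2 shNS libraries, for line D and line E, as deposited and after each library was centred on its median gene. The horizontal axis is the log2 difference and the vertical axis the number of genes. As deposited the genes of line D lie around -0.36 and those of line E around -0.11. After centring both lie near 0, and line D is the broader.

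Of the 9529 genes 40 were called higher in the knockdown on both scales, which is 0.42% of the genes tested, and 310 were called lower, which is 3.25%. A gene was called when limma gave an adjusted p under 0.05. The fit treated the 12 libraries as independent, although libraries of 1 line at different times deviated alike. As deposited 40 genes (0.42%) were higher and 430 (4.51%) lower, and after centring 459 (4.82%) were higher and 362 (3.8%) lower. With the 8 h libraries alone limma called 73 higher and 680 lower as deposited, and 0 after centring (lowest adjusted p = 0.185). The centred calls thus rest on the spread shared with the 0 and 12 h libraries. As deposited the 8 h libraries alone gave ATP5B, whose lines lay far apart, an SE of 0.32. METTL3, whose lines lay close together, also had 0.32. The counts of 73 and 680 thus rest on a spread shared over genes more than on each gene's own. The 40 genes had a median log2 difference of 1.01 as deposited and 1.28 after centring, and the 310 genes a median of -1.01 and -0.74. In each of these 350 genes (3.67%) both knockdown libraries lay on the same side of both controls. Such a separation was common in the table, since as deposited 10.4% of all genes had both knockdown libraries above both controls and 42.8% had them below. The number of calls rested on having both controls: as deposited 3 genes were called without shNS replicate 1 and 10 without replicate 2. It also rested on the line, with 29 genes called without line D and 2355 without line E.

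ALKBH5 itself (chr17:18183078-18209954, plus strand, GRCh38) came first as the check of the labels. Its signal was 35.9 and 32.1 in the controls and, in lines D and E, 1.52 and 4.29. The knockdown libraries held 4.47% and 12.6% of the control mean, and they did not overlap the controls. The log2 difference was -3.26 (SE 0.29, adjusted p = 0.000312) as deposited and -2.99 (SE 0.22, adjusted p = 0.00139) after centring. The other eraser, FTO, stood at 6.04 and 5.01 in the controls against 3.21 and 4.95, and was not called (log2 difference -0.38, adjusted p = 0.249). Of the 6 tested members of the eraser and AlkB family list, ALKBH5 was the member called.

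Of the 12 tested members of the m6A writer and methyltransferase list, 2 were called lower as deposited and 1 after centring. Among all genes 4.51% were called lower as deposited and 3.8% after centring, where 4.82% were higher. With so few members no test of the list was made. WTAP, a scaffold subunit of the writer complex, stood at 17.8 and 14.9 in shNS and at 7.11 and 8.21 in lines D and E. It was lower on both scales, with a log2 difference of -1.0 (SE 0.20, adjusted p = 0.0248) as deposited and -0.73 (SE 0.12, adjusted p = 0.0135) after centring. METTL14, the RNA-binding partner of the catalytic subunit, had 5.0 and 4.24 against 2.39 and 2.47, and was called lower as deposited (adjusted p = 0.0473) but not after centring (adjusted p = 0.0577). METTL3, the catalytic subunit, stood at 20.6 and 17.9 in shNS and at 21.2 and 19.3 in the knockdown lines, which overlap, and was not called. Among 13 tested readers 2 were called lower as deposited and 0 after centring, where 1, ELAVL1, was called higher. Those lower were IGF2BP2, which stabilises bound mRNAs (16.0 and 13.5 against 5.73 and 9.12, log2 difference -0.93), and RBMX (75.8 and 65.6 against 40.2 and 39.4, log2 difference -0.81). YTHDF2, the reader that leads mRNAs to decay, had 6.39 and 5.13 against 4.20 and 4.35 and was not called. TACC3, a spindle protein that has been studied as a target of ALKBH5 in leukaemia, stood at 24.8 and 20.8 in shNS and at 18.7 and 16.9 in lines D and E. Its log2 difference of -0.34 (SE 0.22) was not called (adjusted p = 0.345), and after centring it was -0.07. MYC, a driver of growth with a short-lived mRNA, had 4.96 and 4.18 against 6.35 and 4.76 and was not called (log2 difference 0.23, adjusted p = 0.527).

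Of the 38 gene lists with 5 or more tested members, the one with the highest median difference held proteins that are stored in granules or released against microbes. Of 14 tested members 6 were called higher and 0 lower on either scale, and the median log2 difference was 0.87 as deposited and 1.14 after centring, against -0.23 and 0.04 over all genes. Among all genes 0.42% were called higher as deposited and 4.82% after centring. DEFB1, a beta-defensin, stood at 6.22 and 7.15 in shNS, while lines D and E had 56.9 and 96.6. The lines held 850.5% and 1445% of the control mean, and its log2 difference was 3.29 (SE 0.28, adjusted p = 0.000312). CAMP, the precursor of the antimicrobial peptide LL-37 (chr3:48223347-48225491, plus strand, GRCh38), stood at 2.81 and 3.27 in the controls and, in lines D and E, 8.81 and 16.1, a log2 difference of 1.69 (SE 0.26, adjusted p = 0.00986). SLPI, which inhibits the proteases of granules, had 22.4 and 17.9 against 38.2 and 53.1 (log2 difference 1.13, adjusted p = 0.021). In DEFB1, CAMP and SLPI line E was the higher of the lines. S100A9, a calcium-binding protein of myeloid cells, went the other way, with 11.6 and 12.5 in the controls against 42.2 and 24.9 (log2 difference 1.36, adjusted p = 0.0473).

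The proteases of the azurophil granule kill and digest microbes. ELANE, neutrophil elastase, had a signal of 644 and 575 in shNS, while lines D and E had 954 and 1488, and was called higher (log2 difference 0.97, SE 0.24, adjusted p = 0.0424). RNASE2, a ribonuclease of granules, was the other member called, at 91.0 and 92.1 against 159 and 232 (log2 difference 1.06). CTSG, cathepsin G, had 940.0 and 826 against 1254 and 2220. All knockdown values of CTSG lay above the controls, but it was not called on either scale (adjusted p = 0.092 and 0.0513). AZU1 and PRTN3, which lie beside ELANE in the genome, stood above the controls in line E alone, AZU1 with 418 and 364 in the controls and, in lines D and E, 313 and 766, and PRTN3 with 125 and 130.1 in the controls against 99.7 and 333. Neither was called. Without shNS replicate 1 or replicate 2 only DEFB1 of the list stayed called as deposited, and without line D 4 members were called.

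Genes of mature monocytes divided. Of 15 tested members of that list 2 were called higher as deposited and 3, with TYROBP, after centring, with 0 lower, and the median log2 difference was -0.09 as deposited and 0.18 after centring. Among all genes 0.42% were called higher as deposited and 4.82% after centring. CD68, a glycoprotein of macrophage lysosomes, stood at 140 and 146 in shNS and at 278 and 299 in lines D and E (log2 difference 1.01, SE 0.22, adjusted p = 0.0285). FCER1G, the signalling chain of several Fc receptors, had 108 and 97.6 against 170.1 and 202 (log2 difference 0.85, adjusted p = 0.0453). The other members were spread to both sides. ITGAM, the CD11b chain, had 3.62 and 4.00 in shNS, while lines D and E had 17.8 and 4.96, and CD36, a scavenger receptor, had 20.1 and 18.3 in the controls and, in lines D and E, 79.3 and 16.8. In both, line D stood far above the controls and line E near them, and neither was called.

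Outside these lists the leading genes with a mean signal of at least 5 were of mixed function. CCND3, a cyclin of G1 phase, stood at 187 and 187 in the controls against 476 and 435 (log2 difference 1.28, SE 0.23, adjusted p = 0.0175). CD82, a tetraspanin, stood at 16.3 and 16.1 against 37.9 and 39.4 (log2 difference 1.21, adjusted p = 0.015). GMPR, which turns GMP into IMP, had 15.6 and 14.3 against 29.6 and 51.4 (log2 difference 1.33). MS4A7, a membrane protein of monocytes and macrophages, had 4.38 and 4.06 against 10.8 and 11.0, and LGALS12, a galectin, 6.21 and 5.95 against 16.4 and 12.7. CFP, properdin of the alternative complement pathway, had 7.48 and 6.50 against 13.1 and 18.8, and CHPF, an enzyme of chondroitin synthesis, 4.59 and 4.06 against 11.2 and 9.42. In each of these genes the controls lay close together and both lines lay above them.

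RN7SK (chr6:52995621-52995948, plus strand, GRCh38), the small nuclear RNA that holds the elongation factor P-TEFb inactive, was called higher at 8 h, with a signal of 75.3 and 39.6 in shNS, while lines D and E had 160.4 and 121.6 (log2 difference 1.34, SE 0.32, adjusted p = 0.0396). It is not polyadenylated, has many near-copies in the genome, and differed between the controls far more than most genes, so its value is uncertain. Other RNAs without a poly(A) tail, picked after their values were seen, also stood lower in shNS replicate 2 than in replicate 1. RNA18S5 had 19498 and 7323 in shNS and 10314 and 14781 in lines D and E, and RN7SL1 had 48.4 and 29.3 against 61.4 and 46.9. Neither was called, and the part of this residue in the RN7SK value was not tested.

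**Figure D2:**
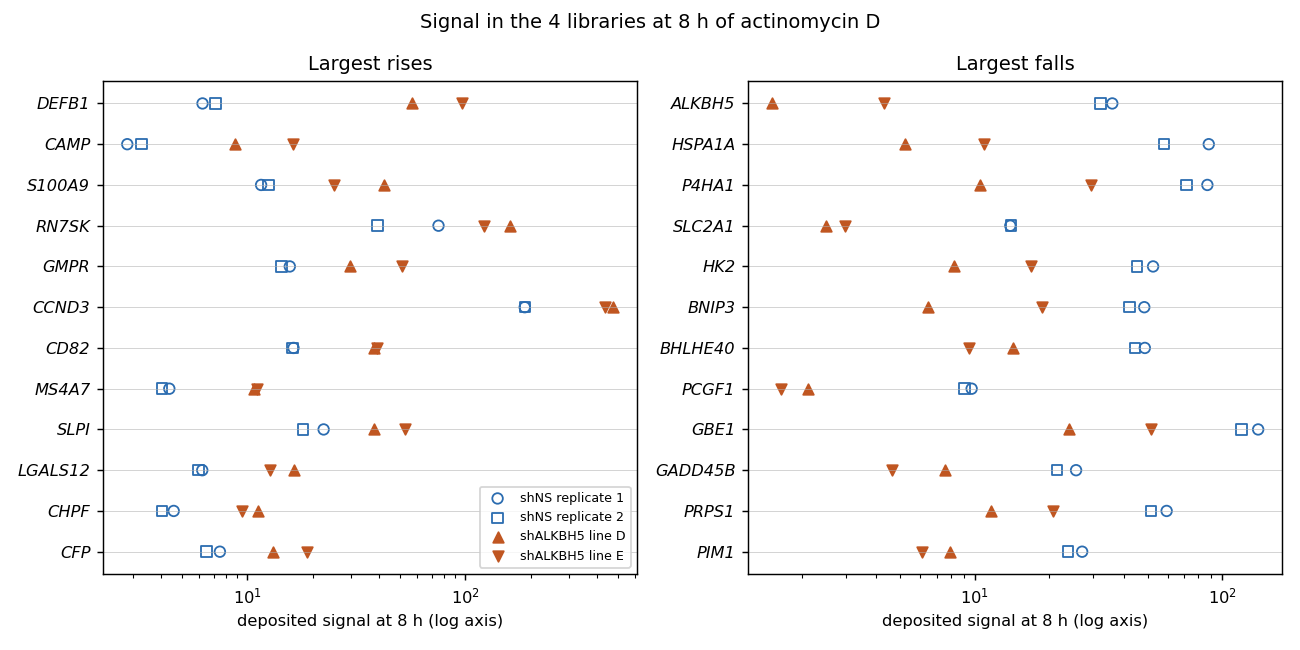
Signal at 8 h in each of the 4 libraries, on a log scale, for the 12 largest rises and the 12 largest falls called on both scales, with shNS replicates and knockdown lines as separate points. DEFB1, CAMP, CCND3 and CD82 lie above both controls in both lines, and HSPA1A, SLC2A1, HK2 and ALKBH5 lie below them. For ALKBH5 and P4HA1 the lines lie further apart than the controls, and for CD82 all 4 libraries form tight pairs.

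The list with the lowest median difference held targets of hypoxia-inducible factor (HIF) outside glycolysis. HIF is a transcription factor that pairs an oxygen-labile alpha subunit with ARNT, binds the core letters ACGTG or GCGTG, and raises genes that spare or deliver oxygen. Of 18 tested members 11 were called lower as deposited and 10 after centring, with 0 higher, against 4.51% and 3.8% of all genes called lower. As deposited 17 of the 18 lay below both controls in both lines, against 42.8% of all genes. The median log2 difference was -1.38 as deposited and -1.11 after centring, and after centring it was -1.37 for line D and -0.77 for line E. Without shNS replicate 1 the test called 0 members as deposited, without replicate 2 it called 1, and without line D it called 3. Scaled to the ribosomal protein genes in place of the spike-ins, it called 4 lower and 1, PLOD1, higher.

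The promoters of BNIP3, P4HA1, BHLHE40 and SLC2A1 show how these letters are spread among the called genes, and are printed as the 250 bases before the transcription start that RefSeq's table for GRCh38.p14 uses, 5′ to 3′ on the gene's strand. That start is not the outer end of the gene in the GENCODE annotation, from which gene coordinates are given here, so the windows of SLC2A1 and BHLHE40 lie inside those genes' annotated spans and the windows of BNIP3 and P4HA1 overlap theirs. Capitals mark ACGTG or GCGTG on either strand, so that CACGT and CACGC count as well, and a palindromic CACGTG counts on both strands. They lie at chr10:131981924-131982173 (minus strand), chr10:73096867-73097116 (minus), chr3:4979187-4979436 (plus) and chr1:42958869-42959118 (minus).
BNIP3: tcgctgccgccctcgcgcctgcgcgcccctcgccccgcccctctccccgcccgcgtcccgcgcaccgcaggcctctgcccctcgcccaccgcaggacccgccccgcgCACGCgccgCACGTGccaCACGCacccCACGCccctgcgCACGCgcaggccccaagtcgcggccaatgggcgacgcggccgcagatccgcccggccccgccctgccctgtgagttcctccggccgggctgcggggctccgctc
P4HA1: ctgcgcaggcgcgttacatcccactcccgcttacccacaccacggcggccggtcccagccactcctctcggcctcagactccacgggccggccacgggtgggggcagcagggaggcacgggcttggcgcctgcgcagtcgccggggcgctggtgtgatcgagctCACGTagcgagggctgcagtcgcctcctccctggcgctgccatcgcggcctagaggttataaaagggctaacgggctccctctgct
BHLHE40: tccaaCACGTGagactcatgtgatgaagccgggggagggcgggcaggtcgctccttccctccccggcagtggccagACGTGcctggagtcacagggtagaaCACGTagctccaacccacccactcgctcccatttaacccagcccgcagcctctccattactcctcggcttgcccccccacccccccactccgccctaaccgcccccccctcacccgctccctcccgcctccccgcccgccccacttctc
SLC2A1: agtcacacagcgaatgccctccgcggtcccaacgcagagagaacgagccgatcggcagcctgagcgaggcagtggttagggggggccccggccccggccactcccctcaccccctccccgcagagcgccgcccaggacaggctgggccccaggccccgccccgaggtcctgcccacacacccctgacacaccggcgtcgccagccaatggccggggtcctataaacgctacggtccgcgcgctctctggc
BNIP3 held 2 matches to ACGTG and 4 to GCGTG, P4HA1 1 and 0, and BHLHE40 4 and 0, while SLC2A1 held none in this window. Of the 15 list members whose promoter was found there, 11 (73.3%) held ACGTG, against 18.7% of all 27305 promoters, and 10 (66.7%) held GCGTG, against 31.9%. Of the 8 with a promoter that were called lower on both scales, 6 (75.0%) held ACGTG and 3 (37.5%) GCGTG. The list was chosen as HIF targets, so a high share was likely from the outset and says nothing of the knockdown. The 27305 promoters include genes not tested here, since 7277 tested genes had a promoter. A match is a run of letters, and no binding was measured here.

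P4HA1, a prolyl hydroxylase that matures collagen, stood at 86.9 and 71.7 in the controls and, in lines D and E, 10.5 and 29.5 (log2 difference -2.10, SE 0.42, adjusted p = 0.0247). BNIP3, a mitochondrial receptor for mitophagy, had 48.3 and 42.0 against 6.44 and 18.7 (log2 difference -1.93, adjusted p = 0.0292). BHLHE40, a transcriptional repressor, had 48.6 and 44.4 against 14.3 and 9.42 (log2 difference -1.91, adjusted p = 0.0144). KDM3A, a histone H3K9 demethylase, had 23.2 and 19.7 against 5.81 and 6.99, with lines close to each other (log2 difference -1.60, SE 0.20, adjusted p = 0.00411). In P4HA1 and BNIP3 line D was the lower line, and in BHLHE40 line E was.

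The other members called lower on both scales were MXI1, an antagonist of MYC (54.1 and 45.7 against 13.6 and 19.2, log2 difference -1.56), WSB1 (-1.50), ERO1A, the oxidase of the endoplasmic reticulum (-1.48), VEGFA, the angiogenic growth factor (-1.37), BNIP3L (-1.23) and EGLN1, the HIF prolyl hydroxylase (-1.02). FAM162A was called as deposited alone (log2 difference -1.38, adjusted p = 0.0451, and 0.0737 after centring). NDRG1 had 377 and 347 in the controls against 67.1 and 214.9, and its log2 difference of -1.58 was not called (adjusted p = 0.0845). HIF1A, which encodes the alpha subunit, had 20.4 and 18.2 against 17.8 and 14.9, a log2 difference of -0.23 that was not called and that stood at 0.04 after centring. PLOD1, a lysyl hydroxylase, had 66.7 and 60.5 against 64.0 and 61.7, which overlap.

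Of 24 tested genes of glycolysis and glucose uptake 4 were called lower as deposited and 3, SLC2A1, HK2 and PDK3, after centring, with 0 higher, and the median log2 difference was -0.66 and -0.39. Among all genes 4.51% and 3.8% were called lower, and the median was -0.23 and 0.04. SLC2A1, the glucose transporter GLUT1 (chr1:42925375-42959176, minus strand, GRCh38), stood at 13.9 and 14 in shNS, while lines D and E had 2.50 and 2.99. Its lines held 17.9% and 21.5% of the control mean (log2 difference -2.0, SE 0.18, adjusted p = 0.000312). HK2, the inducible hexokinase, had 52.4 and 45.2 against 8.19 and 16.9 (log2 difference -1.96, adjusted p = 0.0121). ENO2, an enolase, had 51.5 and 49.1 against 4.61 and 18 and was called as deposited (adjusted p = 0.0374) but not after centring (adjusted p = 0.0655), as was PGK1, with 722 and 672 against 415 and 463. For SLC2A3, the transporter GLUT3, the lines stood far apart, with 84.6 and 71.8 in the controls and, in lines D and E, 3.96 and 47.9, and it was not called (adjusted p = 0.153). PKM, the pyruvate kinase that ends glycolysis, had 550.5 and 528 in shNS and 365 and 404 in the lines and was not called.

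Outside these lists and ALKBH5, the largest fall among called genes with a mean signal of at least 5 was that of HSPA1A, the inducible HSP70 chaperone, at 88.1 and 58.1 in the controls against 5.24 and 10.9 (log2 difference -3.07, SE 0.34, adjusted p = 0.00225). It has a near-identical copy, HSPA1B, so the split of its reads is uncertain. Of 22 tested heat shock chaperones 3 were called lower and 0 higher on both scales. Among all genes 3.25% were called lower on both scales. The other 2 were DNAJB1, the HSP40 partner of HSP70 (18.8 and 12.2 against 4.42 and 5.88, log2 difference -1.40, adjusted p = 0.0175), and HSPA4 (log2 difference -1.0, adjusted p = 0.0311). The list's median log2 difference, -0.15 as deposited and 0.12 after centring, was near that of all genes.

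Immediate early genes, which answer signals fast and have short-lived mRNAs, had 7 of 23 tested members called lower as deposited and 6 after centring, with 0 higher. Their median log2 difference was -0.77 and -0.50. Among all genes 4.51% were called lower as deposited and 3.8% after centring. GADD45B, a stress sensor, had 25.6 and 21.5 against 7.60 and 4.60 (log2 difference -1.82), and PPP1R15A, a phosphatase subunit that ends the stress block of translation, had 59.0 and 49.5 against 19.1 and 15.5 (-1.60). ZFP36, a protein that destabilises AU-rich mRNAs, had 13.4 and 9.40 against 3.79 and 4.84 (-1.21, adjusted p = 0.0255), and IER2 had 37.3 and 33.4 against 12.2 and 21.7 (-1.07, adjusted p = 0.0371). Other leading falls were those of PIM1, a kinase induced by cytokines (27.1 and 23.8 against 7.91 and 6.09, log2 difference -1.73), PCGF1, a Polycomb subunit (9.70 and 9.09 against 2.11 and 1.64, -1.86), PRPS1, an enzyme of nucleotide synthesis (59.5 and 51.5 against 11.6 and 20.6, -1.77), and GBE1, the glycogen branching enzyme (139 and 119 against 23.9 and 51.2, -1.85). In PIM1, PCGF1, PRPS1 and GBE1 both lines lay far below both controls.

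Genes of the mitotic spindle and kinetochore had 13 of 46 tested members called lower as deposited and 7 after centring, with 0 higher. As deposited 42 of them lay below both controls in both lines. Over all genes 4.51% and 3.8% were called lower, and 42.8% lay below both controls in both lines. The list's median log2 difference was -0.64 and -0.37. NUF2, a subunit of the NDC80 complex that binds microtubules, had 25.6 and 20.9 against 8.89 and 8.70 (log2 difference -1.30, SE 0.24, adjusted p = 0.0192). SGO1, the protector of centromeric cohesion, had 6.65 and 5.57 against 2.12 and 2.20 (-1.17). Genes of DNA replication had 2 of 45 members called lower as deposited, ORC1 (log2 difference -1.07) and PRIM1 (-0.94), and ORC2 as well after centring. The self-renewal list of leukaemia had 0 of 15 called on either scale, and HOXA9, its best known member, stood at 39.2 and 33.4 in shNS, while lines D and E had 11.5 and 32.1. As deposited, 0 mitotic genes were called with either control or line D left out, and 0 were called lower when the libraries were scaled to the ribosomal protein genes.

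Most cytoplasmic ribosomal protein genes lay below the controls as deposited, and few of them passed the test. Of 83 tested cytoplasmic ribosomal protein genes 10 were called lower as deposited and 2 after centring, with 0 higher, while 80 lay below both controls in both lines. Among all genes 4.51% and 3.8% were called lower, and 42.8% lay below both controls in both lines. The median log2 difference of the ribosomal protein genes was -0.62 and -0.35. RPL7 had 4085 and 3375 in the controls and, in lines D and E, 1288 and 2051 (log2 difference -1.19, adjusted p = 0.0259, and 0.0371 after centring), and it has many processed pseudogenes. RPL9 was the other member called after centring (-0.70 on that scale). The mRNAs of these proteins share a 5′ terminal oligopyrimidine tract with several translation factors and with hosts of small nucleolar RNAs. Of 61 translation factors 6 were called lower as deposited and 5 after centring, led by EIF4A2 (-1.39) and EIF3E (-1.28). Of 20 host genes 4 were called lower as deposited and 3 after centring, EPB41L4A-AS1 (-1.06) and GAS5 (-0.98, as deposited alone) beside SNHG5 (1045 and 854 against 364 and 506, log2 difference -1.14) and SNHG1 (155 and 136 against 51.3 and 83.5, -1.13). NPM1, a nucleolar chaperone often mutated in this leukaemia, had 1200.5 and 1033 against 554 and 541 (-1.02). It was the 1 member called as deposited of 34 tested nucleolar ribosome biogenesis genes, whose median was -0.02. After centring that list had 1 lower and 2 higher, RRP9 and SRM, both named after their values were seen, and a median of 0.25. Mitochondrial ribosomal protein genes had 0 of 77 called as deposited and, after centring, 12 higher and 1, MRPL30, lower, with a median of 0.27 on that scale.

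Most of the other lists held few calls. Among all genes 4.51% were called lower as deposited and 3.8% after centring, and 0.42% and 4.82% higher. Of 168 zinc finger genes 12 were called lower as deposited and 8 after centring, where 4 (ZNF385A, ZNF428, ZNF512 and ZNF587) were higher, and of 57 genes of mRNA decay 5 were called lower, with 2, ELAVL1 and EXOSC1, higher after centring. OXPHOS genes (79 tested), lysosomal genes (47), histones (11) and antigen presentation genes (9) had 0 calls on either scale. Proteasome genes (43) and cholesterol synthesis genes (25) had 0 called as deposited, and 2 (PSMA5 and PSMD3) and 3 (DHCR7, LSS and MVK) called higher after centring. BBC3, which encodes the cell death protein PUMA, and CCNG1 were the 2 of 14 tested p53 targets called lower as deposited, with log2 differences of -0.86 and -1.09. Of 30 genes of the BCL2 family and cell death 1, again BBC3, was called lower as deposited, and after centring BAD, BAK1 and DIABLO were higher and BIRC2 and BBC3 lower.

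**Figure D3:**
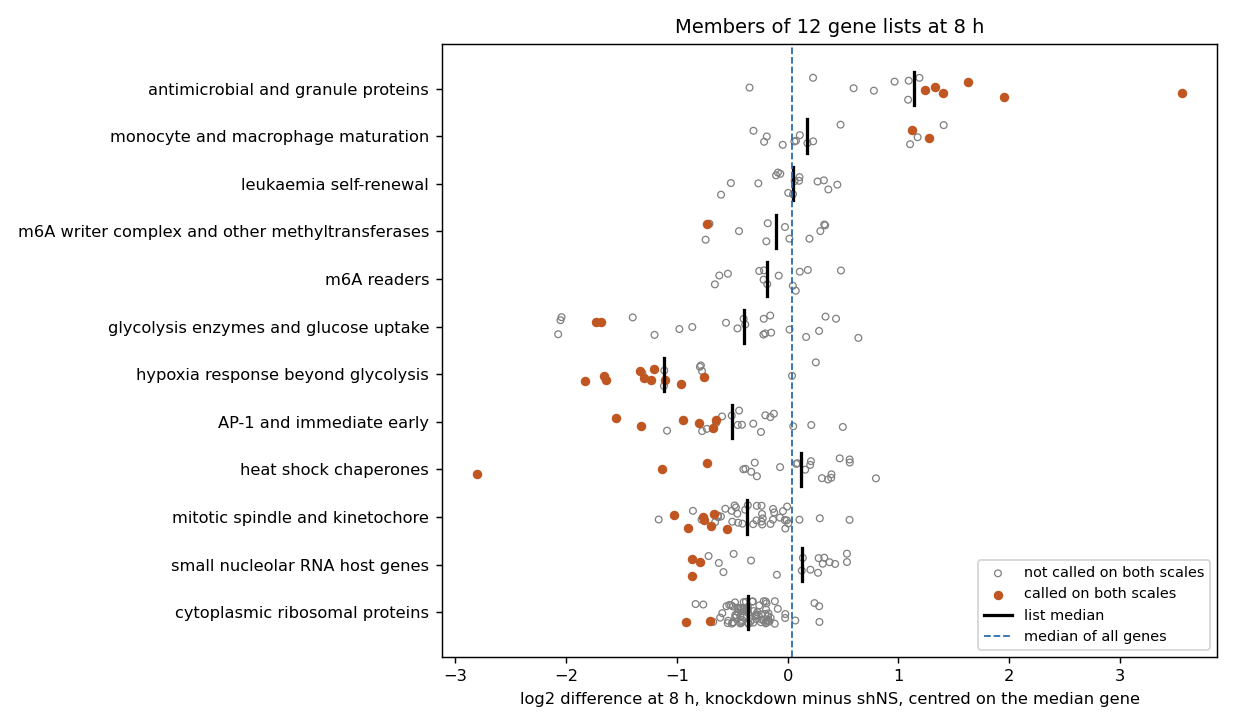
Centred log2 difference of knockdown minus shNS at 8 h (horizontal axis) for the tested members of 12 gene lists, 1 point a gene, filled where the gene was called on both scales. The black bar is the list's median and the dashed line the median of all genes, 0.04. The bar of the antimicrobial list lies furthest to the right, at 1.14, and that of the hypoxia list furthest to the left, at -1.11.

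The cell label was read against markers of cell types. Of 9 monocyte markers 6 were among the genes tested, and CD14, CSF1R and MPO were not. The summed signal of the 6 was 324 and 318 in the controls against 571 and 597, with CD68 and FCER1G, already named as called, the largest. Both lines lay above both controls in 5 of the 6, against 10.4% of all genes. In the other 1, CD33, they lay below, at 38.6 and 33.1 against 31.1 and 31.1. The lymphoid marker NKG7 had 401 and 350.4 in shNS, while lines D and E had 179.8 and 336. The megakaryocyte marker GP1BA had 2.81 and 2.70 in the controls and, in lines D and E, 1.62 and 2.64, and 0 markers of erythroid, epithelial or fibroblast cells were among the genes tested. The part of these markers in the differences was not tested.

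The lines differed from each other far more than the controls did. Over genes the log2 difference of line E minus line D had an SD of 0.52, against 0.12 for shNS replicate 2 minus replicate 1. The lines share their controls, so their values are set side by side. For the 310 lower genes the median log2 difference after centring was -0.75 for line D and -0.72 for line E, and for the 40 higher genes 1.39 and 1.15. The test favours genes whose lines lie close, so likeness of the lines in these genes is partly set by the choice. Line D was the farther from the controls in 270 of the 310 as deposited and in 156 after centring. Among the 40 it was so in 15 and 27. In some genes the lines lay far from each other. ATP5B, a subunit of ATP synthase, had 523 and 453 in the controls against 32.5 and 504. NDUFV2, a subunit of complex I, had 67.4 and 56.3 in shNS, while lines D and E had 10.5 and 62.2. CTSA, a lysosomal carboxypeptidase, had 82.6 and 79.8 in the controls and, in lines D and E, 297 and 120. INSIG1, a regulator of sterol synthesis, had 41.5 and 35.9 in the controls against 40.6 and 102. None of these 4 genes was called.

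The same contrast at 0 h, before actinomycin D, shows which differences were already there. Of the 40 higher genes 31 were also called higher at 0 h and 39 had the same sign there after centring, and their median after centring was 0.92 at 0 h, 1.28 at 8 h and 1.09 at 12 h. As deposited it was 1.14 at 0 h and 1.01 at 8 h. Of the 310 lower genes 8 were also called lower at 0 h, although 305 had the same sign after centring, and their median was -0.47 at 0 h, -0.74 at 8 h and -0.70 at 12 h. As deposited theirs was -0.25 at 0 h and -1.01 at 8 h. Across all genes the centred differences at 8 h and 0 h had a Pearson r of 0.78 and a Spearman rho of 0.76, as a description over genes measured in different libraries of the same lines. DEFB1 had centred log2 differences of 3.44, 3.56 and 3.13 at 0, 8 and 12 h, SLC2A1 of -1.17, -1.73 and -1.71, ALKBH5 of -1.99, -2.99 and -2.43, and P4HA1 of -1.48, -1.83 and -2.01. After centring the hypoxia list had medians of -1.01, -1.11 and -1.27, and the antimicrobial list of 1.08, 1.14 and 0.95. As deposited the medians at 0 and 8 h were -0.79 and -1.38 for the hypoxia list, and 1.31 and 0.87 for the antimicrobial list. Both lists thus stood nearly as far from the controls at 0 h as at 8 h after centring, while as deposited the hypoxia list was farther at 8 h and the antimicrobial list nearer. Over all genes the median as deposited was 0.23 at 0 h and -0.23 at 8 h. The deposited changes between these times therefore include a shift of the median gene. The calls at 0 h counted above were as deposited as well.

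Immediate early genes had medians after centring of -0.07 at 0 h, -0.50 at 8 h and -0.39 at 12 h (0.15 at 0 h and -0.77 at 8 h as deposited). The median covers members that were already low at 0 h, such as PPP1R15A at -1.28 and GADD45B at -1.04 after centring. ZFP36 had a centred log2 difference of 0.06 at 0 h and -0.94 at 8 h, IER2 of -0.04 and -0.80, and DNAJB1 of 0.12 and -1.13. DNAJB1 stood at 69.4 and 57.3 in shNS and 93.4 and 68.9 in lines D and E at 0 h, so its groups overlapped at 0 h and lay apart at 8 h. A test of the difference between the 8 h and the 0 h contrast called 0 of 9529 genes (0%) in either direction on either scale with limma, with 1560 genes at an unadjusted p under 0.05 as deposited and 317 after centring. The 8 h contrast against that at 12 h also gave 0 calls, with 123 and 121 genes at an unadjusted p under 0.05. When each line or replicate was followed over time as a block, the 8 h contrast against that at 0 h called 10 genes higher and 2483 lower as deposited, and 3 higher and 3 lower after centring. On both scales 2 were higher, RN7SK and HIST1H1C, and 3 lower, SGK1, DNAJB1 and CHD1, of which HIST1H1C, SGK1 and CHD1 were picked after their values were seen.

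**Figure D4:**
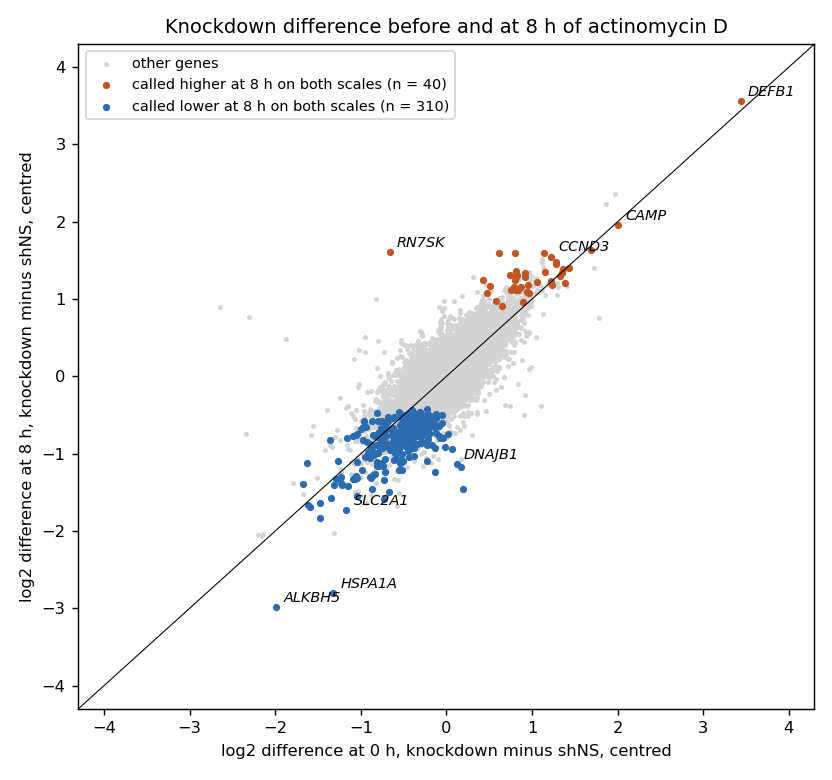
Each gene's centred log2 difference of knockdown minus shNS at 8 h (vertical axis) against that at 0 h (horizontal axis), with genes called on both scales at 8 h in colour. Most points follow the diagonal, with DEFB1 at 3.44 and 3.56, while DNAJB1 lies at 0.12 and -1.13 and RN7SK at -0.66 and 1.61.

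The genes called at 8 h were also compared by transcript length, by the share of signal left in the controls and by signal at 8 h. Only transcript length is independent of the values tested, since the other features come from libraries in the same fit. The longest annotated transcript had a median of 2170 nucleotides for the 40 higher genes, 4173 for the 310 lower genes and 3578 for all genes found in the annotation. In the controls the median share of signal left at 12 h was 19.0% for the higher genes, 12.5% for the lower genes and 12.4% for all genes. The higher genes thus had shorter transcripts and more signal left in the controls than the median gene, and the lower genes had longer transcripts. At 8 h the median signal was 8.25 for the higher, 10.9 for the lower and 8.37 for all genes. These are medians of features that run together across genes, and no test was made of them.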

How the data were processed

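The study holds 12 libraries of poly(A) RNA from NOMO-1 cells, 2 in each of 6 groups. What the authors deposited is a signal for each gene symbol. STAR, RSEM and the build GRCh38 appear in the submitters' processing notes, with no version there. This signal apparently is scaled to ERCC spike-ins, although no label records that step. It holds no counts, so depth is unknown and no count test or counting interval could be used.

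All 9529 genes had a mean signal of at least 1 and were tested as log2(signal + 1), so fold changes of low genes are understated. A model of 6 group means was fitted over the 12 libraries with limma 3.58.1 under R 4.3.3, using a trend of variance on mean and empirical Bayes, on 6 residual degrees of freedom. Adjusted p is by Benjamini-Hochberg over all genes, called under 0.05. Centring subtracted each library's median gene. No source says whether replicates came from separate cultures, so a p-value reflects the spread among these libraries alone, possibly a technical one. The procedure was tested on simulated data. Noise was drawn there independently for each library, so the simulation cannot show how calls hold where libraries of 1 line deviate alike. All per-sample columns of the table are from these libraries.

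Genes were named by a rule: a set of m6A and myeloid genes, the 12 largest rises and 12 largest falls called on both scales (mean 5 or more, groups apart), and up to 4 members of each of 44 lists. Members of the hypoxia, granule, monocyte and glycolysis lists beyond these, and genes of 1 line alone, were named after their values were seen. Some genes that the rule picked are not reported here. The comparison, members and lists were chosen with earlier results of these data known. Coordinates and transcript lengths are from GENCODE for GRCh38, in which 96.0% of the symbols were found, and promoters are from RefSeq. Alternatives were other scalings, filters, pseudocounts, no trend, the 8 h libraries alone, a replicate block and leaving out each library. The block followed each line or replicate over the 3 times. Centred deviations from the group mean correlated over genes at 0.78 (0 and 8 h), 0.90 (8 and 12 h) and 0.66 (0 and 12 h) for line D, and at 0.27, 0.14 and 0.065 for shNS replicate 1.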

Additional observations from a re-analysis of the deposited data

Results flagged for a closer look

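In 3 of the named genes the knockdown libraries lay on 1 side of both controls at 0 h and on the other side at 8 h, as deposited and after centring, and each is given by its difference at 8 h minus that at 0 h. Over all genes tested 76 of 9529 lay so. With limma none of the 3 differences passed the adjusted threshold (adjusted p = 0.299 for each as deposited). With each line or replicate as a block all 3 passed it as deposited (limma adjusted p = 4.9e-11 for RN7SK, 0.000716 for H3F3B and 0.00178 for SLC3A2). After centring RN7SK passed (adjusted p = 0.0237) and H3F3B and SLC3A2 did not (adjusted p = 0.335 and 0.22). As deposited the block fit gave these genes nearly the same SE, 0.23, 0.23 and 0.24. Its p-values there rest on a spread shared over genes more than on each gene's own. RN7SK, which holds P-TEFb inactive, had a signal of 93.2 and 72.4 in shNS and 61.9 and 58.9 in lines D and E at 0 h, against 75.3 and 39.6 in shNS and 160.4 and 121.6 in the lines at 8 h, a change of 1.78 (SE 0.45) on the log2 scale. H3F3B, which encodes the replacement histone H3.3, had 137.5 and 118 in shNS and 216.5 and 172 in the lines at 0 h, and 93.6 and 83.2 against 53.2 and 77.0 at 8 h, a change of -1.05 (SE 0.33). SLC3A2, the heavy chain shared by several amino acid transporters, had 80.9 and 76.4 against 100.9 and 99.0 at 0 h, and 32.4 and 28.1 against 16.0 and 21.5 at 8 h, a change of -1.01 (SE 0.28).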

How the results depend on the processing

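Calls as deposited, 40 higher and 430 lower, became 73 and 680 with the 8 h libraries alone, 453 and 3031 with a replicate block, and 2144 and 1772 with centring and the replicate block together. Scaling moved them most in direction: 459 were higher after centring, 367 with median-of-ratios scaling and 1098 (with 46 lower) when scaled to the ribosomal protein genes, and 131 were lower after rescaling to the ERCC transcripts. The median of all genes stood at -0.23 as deposited, 0.02 with median-of-ratios scaling, 0.27 when scaled to ribosomal protein genes and -0.14 after rescaling to ERCC. After centring, the 8 h libraries alone gave 0 higher and 0 lower with limma (1873 genes at an unadjusted p under 0.05), and the replicate block gave 2144 and 1772. Leaving out each library in turn gave 1 to 70 higher and 2 to 2285 lower as deposited, and 1 to 725 higher and 4 to 594 lower after centring. For 8 h against 0 h the replicate block gave 10 higher and 2483 lower, and 3 and 3 after centring. For 8 h against 12 h it gave 3 lower. As deposited the block fit gave named genes similar SEs, such as 0.23 for RN7SK and 0.26 for ALKBH5 at 8 h against 0 h. Its counts as deposited thus rest on a spread shared over genes. The counts of the 8 h libraries alone do so as well. No paired analysis of knockdown with control was possible because the knockdown columns carry letters and share no number with shNS. The no-filter setting removed no gene and is void. Other filters, pseudocounts and the fit without trend kept each count within 1.5 times.

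ALKBH5, DEFB1 and SLC2A1 were called as deposited under all 22 alternatives run, and after centring under 16 of 17, the exception being the 8 h libraries alone. Over the genes named here 427 alternative values as deposited and 539 after centring lost the call, 176 and 54 gained it, and 25 and 9 changed sign, the latter in genes that were not called. As deposited, scaling to ribosomal protein genes gave FTO 0.11, GP1BA 0.13, H3F3B 0.14, HIF1A 0.34, PKM 0.12, PLOD1 0.58, TACC3 0.24 and YTHDF2 0.15. Centring, without and with the replicate block, gave HIF1A 0.0402 and PLOD1 0.26, median-of-ratios scaling gave HIF1A 0.0516 and PLOD1 0.28, and rescaling to ERCC gave PLOD1 0.0952. Leaving out each library in turn, the value as deposited ran from -0.0841 to 0.0539 for PLOD1, -0.0253 to 0.16 for METTL3, -0.66 to 0.75 for RNA18S5, -3.86 to 0.0496 for ATP5B, -0.18 to 1.99 for CD36, -2.45 to 0.0151 for NDUFV2, -0.32 to 0.97 for AZU1 and -0.36 to 1.37 for PRTN3. After centring it ran from -0.0957 to 0.0703 for GP1BA, -0.29 to 0.92 for RNA18S5, -3.43 to 0.15 for ATP5B, -0.0826 to 2.43 for CD36, -0.25 to 0.33 for HIF1A, -2.01 to 0.12 for NDUFV2, -0.31 to 0.17 for TACC3 and -0.23 to 0.0682 for YTHDF2. The cause of these changes was not tested.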

Other observations

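Members of small lists did not always go the same way. Of 20 tested aminoacyl-tRNA synthetases, the enzymes that charge tRNAs, 1 was called higher and 1 lower on each scale. Among all genes 0.42% were called higher and 4.51% lower as deposited, and 4.82% and 3.8% after centring. No test of the list was made. FARSA, the alpha subunit of the phenylalanine enzyme, stood at 8.20 and 6.87 in the shNS replicates and at 12.8 and 19.2 in lines D and E (log2 difference 0.98, SE 0.23, adjusted p = 0.0387). DARS, the aspartate enzyme, stood at 152 and 133 against 53.9 and 77.1 (log2 difference -1.13, SE 0.21, adjusted p = 0.0192).

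Among 29 tested genes of actin, tubulin and other filaments 1 was called lower as deposited, VIM, the intermediate filament protein vimentin, at 160 and 158 in shNS and 69.1 and 63.0 in the lines (log2 difference -1.25, adjusted p = 0.0234). After centring VIM was called lower and ACTN4, TUBA1A, TUBA4A and TUBG1 higher. Over all genes 0.42% were higher and 4.51% lower as deposited, and 4.82% and 3.8% after centring. Of 12 tested myeloid transcription factors 1 was called lower on both scales, ZEB2, a repressor of the zinc finger homeobox family, at 12.1 and 10.5 against 4.31 and 5.81 (log2 difference -1.03, adjusted p = 0.0248), and IRF8 was called higher after centring (0.96 on that scale). A lower member of the mRNA decay list was PATL1, a bridge between deadenylation and decapping, at 73.6 and 62.5 against 27.3 and 38.5 (log2 difference -1.04), with both lines below both controls.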
